A study of Mus musculus with 3 samples.

Results

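Expression of 7 genes of the thick ascending limb and the distal tubule, Umod, Slc12a1, Egf, Slc12a3, Pvalb, Trpm6 and Calb1, was examined in sieved adult mouse renal corpuscle. They are 7 of the 19938 genes that the array measured under the naming used here. The genes were chosen by name from kidney physiology and from earlier results of these same arrays, in which the signals of Umod and Slc12a3 went apart between preparations. Their signals are therefore given as a description, with no test of a difference between preparations. Each gene was read from the probe set that the platform annotation assigns to its symbol alone, and each of the 7 had 1 such probe set.

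There were 3 samples of 1 group. Each was a pool of about 2 kidneys from wild-type CD-1 male mice, an outbred stock, aged 7 to 9 weeks, and no animal carried a transgene or received a treatment. Minced kidney was digested for 15 minutes at 37 °C with 0.5% collagenase A and passed over filters of 100, 70 and 40 µm. No cells were sorted, and the medulla is not said in the labels to have been removed. Any tubule fragment that passed with the corpuscles was measured with them, and in such bulk samples fewer cells of a type and less RNA per cell cannot be told apart. Whether the pools stem from different days or litters is not in the labels, so the spread between them may be technical.

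The renal corpuscle is the filter of the nephron, and the tubule that leaves it returns to touch it. The thick ascending limb takes up salt through the sodium-potassium-chloride cotransporter NKCC2, encoded by Slc12a1, and secretes uromodulin, encoded by Umod, the most abundant protein of normal urine. The limb ends at the macula densa, a plaque of cells set against the glomerular pole, and continues as the distal convoluted tubule. There the thiazide-sensitive sodium-chloride cotransporter NCC, encoded by Slc12a3, takes up salt, the channel encoded by Trpm6 takes up magnesium, and the early part holds the calcium-binding protein parvalbumin, encoded by Pvalb. Farther along, the late convoluted and connecting tubule hold calbindin, encoded by Calb1, which buffers calcium on its way through the cell. Egf encodes the precursor of epidermal growth factor, made by the thick limb and distal convoluted tubule.

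Receptors for odors and pheromones were taken as mostly unused in kidney, an assumption that was not tested here. The 95th percentile of their probe sets served as the background of each array, at 6.90, 6.96 and 6.92 log2 on replicates 1, 2 and 3. Detection meant a log2 signal above this level in a one-sided limma test with a Benjamini-Hochberg adjusted p under 0.05. Of all 19938 genes, 58.9% were called. Of the 7 genes, Umod, Egf, Slc12a3, Pvalb and Calb1 were detected, and Slc12a1 and Trpm6 were not. The detected 5 also exceeded a linear signal of 150 on all 3 arrays, and 2 of them, Calb1 and Egf, exceeded 500. Of the markers of the labeled tissue, all 13 podocyte genes, all 9 endothelial genes and all 5 mesangial genes with a value were detected.

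Many signals of this table are the same to every deposited decimal on several arrays. Of all genes, 54.2% hold 1 value on all 3, among them Egf and Trpm6, so an SD of 0 is not an error of 0. The other 5 genes had 3 different values each.

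Of the thick limb genes, Umod had signals of 8.77, 9.18 and 9.78 log2 on replicates 1, 2 and 3, which are 436, 580 and 879 on the linear scale. Replicate 3 was the highest and replicate 1 the lowest, 2.01-fold apart. The mean was 9.24 ± 0.51 log2 (SD, n = 3), 2.32 above background. Replicate 3 stood 0.81 log2 above the mean of the other arrays. A wider range than the 1.01 log2 of Umod was found in 0.281% of all genes. Umod was chosen with its differences between these arrays known, so nothing is read from this share.

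Slc12a1, the cotransporter gene of the same cells, had 6.46, 6.70 and 7.33 log2, or 88, 104 and 161 on the linear scale. On replicates 1 and 2 the signal was under the background level, by 0.44 and 0.25 log2, and on replicate 3 it was 0.41 above it. The mean, 6.83 ± 0.45 log2 (n = 3), was 0.09 under background, and the gene was not detected. Signals under background have no order, so no change between preparations was measured for this gene, only a signal above background on replicate 3 alone.

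Egf held 9.64 log2, a linear signal of 797, on every array and was 2.71 above background. With equal values it has no order of preparations, whereas Umod, also a gene of the thick limb, varied. The study also places Egf in its list of genes with raised expression in adult podocytes. That list joins genes raised over total kidney cortex with genes raised over embryonic podocytes. Which comparison Egf passed was not examined here. The part of the Egf signal that comes from tubule cells therefore cannot be told apart here from a part that comes from podocytes.

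Of the distal convoluted tubule genes, Slc12a3 had 8.53, 8.51 and 7.95 log2, or 370, 363 and 247 on the linear scale. Replicates 1 and 2 were 0.03 log2 apart before rounding, and replicate 3 was the low one, 0.57 below their mean. The gene averaged 8.33 ± 0.33 log2 (n = 3), 1.40 above background. Its lowest signal, on replicate 3, was still 1.03 above the background of that array.

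Pvalb had 8.56, 8.73 and 8.04 log2, or 376, 426 and 263 on the linear scale. As for Slc12a3, replicate 3 was the low array, here by 0.60 log2 below the mean of the others. The mean was 8.44 ± 0.36 log2 (n = 3), 1.52 above background. On replicate 3 the difference from the other arrays was -0.60 for Pvalb and -0.57 for Slc12a3, which are 0.03 log2 apart.

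Trpm6, the magnesium channel gene, held 6.30 log2 on all 3 arrays, a linear signal of 79, and lay 0.62 under background. It was not detected, so these arrays say nothing of how it varied.

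Calb1, the calbindin gene, had 9.61, 9.17 and 9.38 log2, or 780, 577 and 668 on the linear scale. Replicate 1 was the highest and replicate 2 the lowest, and replicate 3 differed from the mean of the others by -0.01. The mean was 9.39 ± 0.22 log2 (n = 3), 2.46 above background. Calb1 thus followed neither order, and its range, 0.43 log2, was under that of the 4 genes above that varied.

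**Figure D1:**
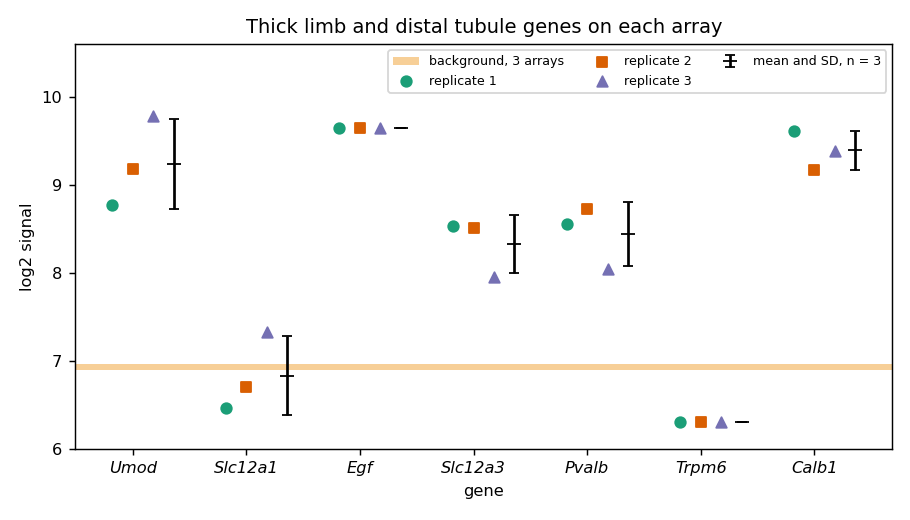
log2 signal (vertical axis) of the 7 genes (horizontal axis) on each of 3 arrays; black marks give the mean with its SD (n = 3), and the orange band spans the background of the arrays, 6.90 to 6.96. Replicate 3 is the highest array for Umod and the lowest for Slc12a3 and Pvalb, Slc12a1 is above background on replicate 3 alone, and Slc12a1 and Trpm6 have means under background.

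The promoters of the 4 genes with a range over 0.5 log2 are shown, the same genes whose signals on replicate 3 helped to choose them. The letters come from the RefSeq promoter table, build GRCm38.p6, which had a window for 6 of the 7 genes but none for Calb1. Only the bases before the outermost annotated start of each gene are printed, 5′ to 3′ on the strand of the gene. They lie at chr7:119479263-119479512 on the minus strand for Umod, at chr2:125152350-125152509 on the plus strand for Slc12a1, at chr8:94328958-94329108 on the plus strand for Slc12a3 and at chr15:78206401-78206650 on the minus strand for Pvalb. The positions are those of the promoters, and the places where the probe sets bind were not analysed here.
Umod: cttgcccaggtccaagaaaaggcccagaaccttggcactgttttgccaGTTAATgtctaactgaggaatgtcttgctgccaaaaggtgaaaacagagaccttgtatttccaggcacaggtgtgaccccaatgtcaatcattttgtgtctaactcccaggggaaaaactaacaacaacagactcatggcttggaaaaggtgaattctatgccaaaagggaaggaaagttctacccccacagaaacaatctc
Slc12a1: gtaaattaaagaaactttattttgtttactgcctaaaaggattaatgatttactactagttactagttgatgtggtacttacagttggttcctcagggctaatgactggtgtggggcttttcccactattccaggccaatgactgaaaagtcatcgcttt
Slc12a3: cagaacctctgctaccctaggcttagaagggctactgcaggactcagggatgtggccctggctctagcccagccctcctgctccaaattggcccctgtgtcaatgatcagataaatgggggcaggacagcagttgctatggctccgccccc
Pvalb: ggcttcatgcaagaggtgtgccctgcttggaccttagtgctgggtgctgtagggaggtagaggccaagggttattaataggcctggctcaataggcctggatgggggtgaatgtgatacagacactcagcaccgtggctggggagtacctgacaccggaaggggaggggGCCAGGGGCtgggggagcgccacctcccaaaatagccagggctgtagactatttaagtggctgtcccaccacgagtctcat

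Capitals mark matches, on either strand, to GTTAAT, letters found in sites of the factor HNF1, or to GCCNNNGGC, the pattern of sites of the factor AP-2. These motifs and TATAAA, the TATA box, were chosen with the signals known. In windows of 250 bases before all 32851 starts of the table, GTTAAT was found in 6.43%, GCCNNNGGC in 13.7% and TATAAA in 12.4%. The window of Umod held GTTAAT, 202 bases before the start, and that of Slc12a1 held none of the motifs, also in the 90 bases that are not printed. Pvalb held the AP-2 pattern 81 bases before its start and also 164 bases before another annotated start. The window of Trpm6, a gene that was not detected, held the AP-2 pattern too, 68 bases before the start that the table uses. Slc12a3 held it 73 bases and TATAAA 32 bases before the start that the table uses. Those bases are not printed because another annotated transcript of Slc12a3 begins 99 bases earlier. A match is a description of letters and not a site in use, and the arrays measured no binding.

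The size of these differences was set beside that of all genes. A range over 0.5 log2 across the arrays was found in 4 of the 7 genes, Umod, Slc12a1, Slc12a3 and Pvalb, and in 1.7% of all genes. Among detected genes it was found in 3 of 5, where all detected genes gave 2.16%, and a range over 1 log2 in 1 of 5, Umod, against 0.409%. Replicate 3 was more than 0.5 log2 above the mean of the others for Umod and Slc12a1 and for 0.186% of all genes. It was that far below for Slc12a3 and Pvalb and for 0.461% of all genes. Earlier knowledge of these values helped to choose the genes, so nothing is read from these shares, and for Slc12a1 the range runs from signals under background. Without replicate 3, none of the 7 genes had a range over 0.5 log2, and the range of Umod was 0.41 and that of Slc12a3 0.03.

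Changes of a gene between arrays can be compared with those of another gene, unlike their levels. Between replicate 3 and the mean of the others, Umod and Slc12a3 moved apart by 1.38 log2, or 2.60-fold, the divergence for which these genes were chosen. Umod and Pvalb moved apart by 1.41 log2, and Pvalb and Slc12a3 by 0.03. The agreement of Pvalb and Slc12a3 rests on replicate 3, since from replicate 1 to replicate 2 Slc12a3 differed by -0.03 and Pvalb by 0.18. On replicate 3 the channel gene Kcnj1, used in the thick limb and the distal tubule, differed from the others by -0.55, against 0.81 for Umod. Egf, with equal values on all arrays, has no order. Whether the signals sort by segment was not tested. With 1 array per preparation none of these gaps has a test.

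**Figure D2:**
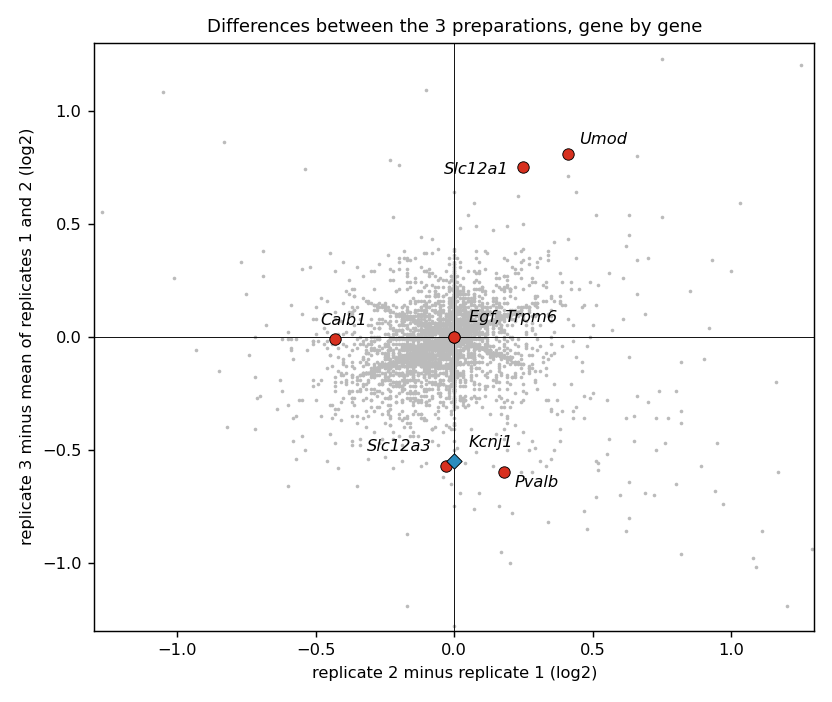
Replicate 2 minus replicate 1 (horizontal axis) and replicate 3 minus the mean of replicates 1 and 2 (vertical axis), both in log2, for all detected genes (grey), the 7 genes (red) and Kcnj1 (blue diamond); 14 genes lie outside the axes. Umod lies at the top, at 0.81, Slc12a3, Pvalb and Kcnj1 at the bottom, at -0.57, -0.60 and -0.55, and Egf and Trpm6 at the origin; Slc12a1, at 0.75, was under background on replicates 1 and 2.

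To see which other genes had such profiles, the deviations of each gene from its own mean over the 3 arrays were compared with those of all 11729 other detected genes. With 3 arrays a profile has few degrees of freedom, and likeness says nothing of shared function or control. Nearest to Slc12a3 by the root mean square difference was Kcnj1, at 0.015 log2. Kcnj1 encodes ROMK, the apical potassium channel of the thick limb, which the distal convoluted tubule and collecting duct also use. Its signals were 8.20, 8.20 and 7.65 log2, low on replicate 3 by 0.55, so a channel gene that works beside Slc12a1 in the thick limb had the order of Slc12a3. The next were Plekhf1 and Fabp3, at 0.021 and 0.028, and 0.375% of detected genes came within 0.1 log2 of Slc12a3. On replicate 3 Plekhf1 and Fabp3, at 6.81 and 6.89 log2, were under the background of 6.92.

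Within 0.1 log2 of Umod lay 2 genes, 0.0171% of those compared. This share was larger for the described genes of smaller range. Umod was also chosen with its differences known, so nothing is read from the share. The 2 genes were Msmo1, an enzyme gene of cholesterol synthesis, at 0.047 with signals of 8.65, 9.06 and 9.56 log2, and the histone gene H4c4, at 0.081. The endothelin receptor gene Ednrb followed, with 9.96, 10.62 and 11.09 log2. Nearest to the values of Slc12a1 were Cltrn, at 0.064, Msmo1, at 0.071, and H4c4, at 0.097, though that profile includes signals under background and is not a measured one. Cltrn encodes collectrin, a protein of the proximal tubule and collecting duct, and had 7.37, 7.60 and 8.10 log2. None of these genes is in the fixed lists of tubule genes.

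Nearest to Pvalb were Lyz1, a lysozyme gene, at 0.023 log2, Tent5a at 0.027 and Phf11a at 0.040, each low on replicate 3 by 0.57 to 0.60. Lyz1 had 7.66, 7.80 and 7.16 log2. Among the 5 nearest was also Olfr99, one of the odor receptors that set the background, at 0.052 with 7.35, 7.44 and 6.71 log2. Values of this size thus also occurred in a gene taken here as background. On replicate 3, however, the Olfr99 signal was under the background of 6.92, so the size of its drop is not a measured one. For Calb1 the nearest were Egln3 at 0.009 and Ints3 at 0.010. Within 0.1 log2 of Calb1 lay 3.05% of detected genes, but its range was also the smallest of the described genes that varied.

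The other genes of the same segments were taken from fixed lists. Of 39 genes with a value, 29 were detected, or 74.4% against 58.9% of all genes. A stricter background, the 99th percentile of receptors, left 15, or 38.5% against 41.7% of all genes, so the side on which the lists stood of all genes turned with the background. A linear signal over 150 on all arrays was found in 21, or 53.8% against 51.3%. Of the 39, 2 had a range over 0.5 log2, Kcnj1 and S100g, and 17 held 1 value on all arrays.

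Of 9 thick limb transport and claudin genes, 6 were detected, or 66.7% against 58.9% of all genes. Kcnj1, at 8.02 ± 0.32 log2 (n = 3), was 1.10 above background. Ppp1r1a, an inhibitor of a protein phosphatase, followed at 7.46 ± 0.01, and Cldn19, a claudin of the paracellular path for calcium and magnesium, at 7.24 ± 0.07. Bsnd, the barttin subunit of chloride channels, was at 7.01 ± 0.08, which is 0.08 above background. Cldn10, Cldn16 and the prostaglandin receptor gene Ptger3 were not detected. Cldn16 had 6.57, 6.64 and 6.95 log2, under background on replicates 1 and 2 and 0.03 above it on replicate 3. Apart from Kcnj1 no gene of this list was 0.5 log2 from the others on replicate 3. Cldn19 had 7.20, 7.20 and 7.32 log2. On replicate 3, 4 of the 9 genes lay above their mean and 1, Kcnj1, below, with 4 equal on all arrays. Of all genes, 4350 lay above and 4779 below on that array. The median deviation of the list was 0.00 there, which the equal values fix.

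Of 8 genes of the WNK kinase pathway, which controls NKCC2 and NCC by phosphorylation, 7 were detected, or 87.5% against 58.9% of all genes. Cul3, a ubiquitin ligase scaffold that helps remove WNK kinases, was at 12.13 ± 0.05 log2 (n = 3), the kinase gene Wnk1 at 11.28 ± 0.10 and the kinase gene Sgk1 at 10.48 ± 0.02. These genes are used by many cell types and do not mark a tubule segment. Stk39, which encodes SPAK, the kinase that phosphorylates both cotransporters, had 9.13, 8.96 and 9.31 log2 and was highest on replicate 3, by 0.27 over the others. Oxsr1, its relative, averaged 8.69 ± 0.12. Wnk4, the form tied to the distal tubule, was at 7.17 ± 0.01, 0.25 above background. Klhl3, the adaptor that hands WNK kinases to Cul3, was not detected, at 6.55 ± 0.06.

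Of 13 genes of distal calcium and magnesium handling, 10 were detected, or 76.9% against 58.9% of all genes. Atp2b1, a plasma membrane calcium pump, was at 10.80 ± 0.04 log2 (n = 3). S100g encodes calbindin-D9k, the small calcium buffer of the distal nephron, and had 10.55, 9.78 and 10.50 log2, with replicate 2 the low array. Calb1 was also lowest on replicate 2, but for S100g replicates 1 and 3 were close and for Calb1 they were not. S100g, like Egf, Oxsr1 and the proximal tubule gene Kap, is in the study's podocyte list, so its signal cannot be assigned to a tubule here. Trpm7, the widely expressed relative of Trpm6, was at 9.39 ± 0.13. Vdr, the vitamin D receptor gene, had 8.19, 8.22 and 7.93 log2, lower on replicate 3 by 0.28, on the side of Slc12a3. Trpv5, the apical calcium channel of the same cells as Calb1, was not detected, at 6.29 on every array. The potassium channel genes Kcna1 and Kcnj10 were not detected either. On replicate 1, 7 of the 13 genes lay above and 1 below their mean, with 5 equal on all arrays. Of all genes, 4757 lay above and 4372 below on that array.

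Of 9 distal transcription factor genes, 6 were detected, or 66.7% against 58.9% of all genes. On all arrays 7 of the 9 held 1 value. Emx1 was at 7.90 log2, the nuclear receptor gene Esrrg at 7.63 ± 0.02 (n = 3) and Irx3 at 7.53. Sall3, Tfap2b and Irx1 were not detected. No gene of this list had a range above 0.04 log2.

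The macula densa touches the corpuscle, so its genes were read too. Of 5, 1 was detected, or 20% against 58.9% of all genes. Nos1, the neuronal nitric oxide synthase gene that defines these cells, was at 6.55 log2 on every array, 0.38 under background. Ptgs2, the cyclooxygenase gene that they induce, was at 6.81, and Slc9a2 and Pappa2 were not detected either. The detected gene, the vasopressin receptor gene Avpr1a, had 8.46, 8.06 and 8.59 log2 and is known from vascular and mesangial cells as well. It was 1.44 above background. Slc12a1, which macula densa cells also use, was above background on replicate 3 alone.

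**Figure D3:**
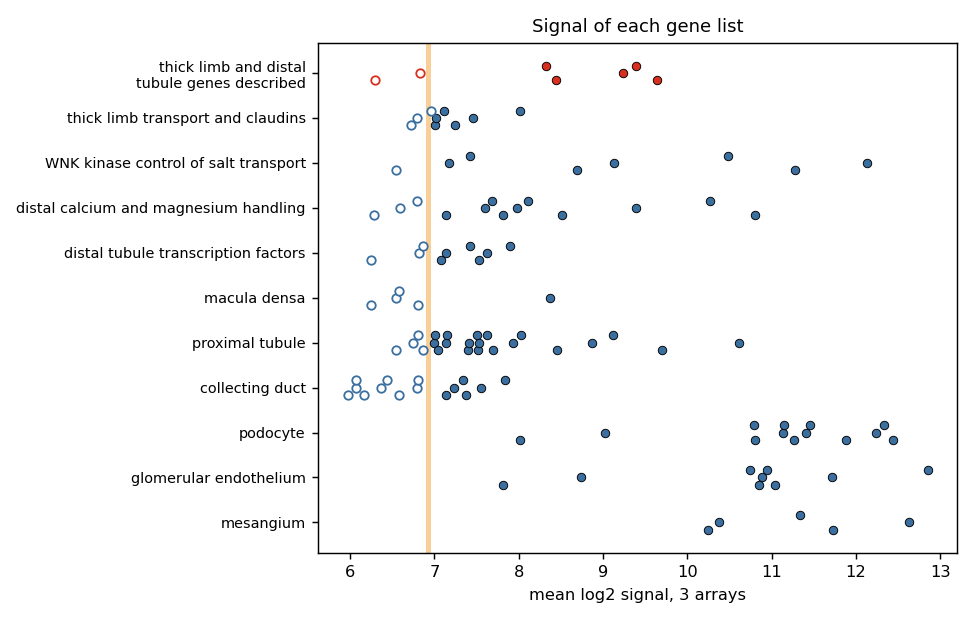
Genes of each list (rows) at their mean log2 signal on the 3 arrays (horizontal axis); detected genes are filled, the others are open, and the orange band is the background, 6.90 to 6.96. The 5 detected genes of the top row lie between 8.33 and 9.64, and 4 of 5 macula densa genes are open points; levels of different probe sets are not comparable as amounts.

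Markers of neighboring segments and of the corpuscle were set beside the differences between preparations. Of 23 proximal tubule genes 19 were detected, or 82.6% against 58.9% of all genes. Highest were Kap at 10.61 ± 0.16 log2 (n = 3), Gatm at 9.70 ± 0.04 and Cyp2e1 at 9.12 ± 0.18. On replicate 1, 12 of the 23 genes lay below their mean and 3 above, where of all genes 4372 lay below and 4757 above. On replicate 2, 13 lay above and 2 below, where of all genes 4140 lay above and 4989 below. The remaining 8 were equal on all arrays. Slc5a12, a lactate transporter gene of the proximal tubule, had 7.55, 8.47 and 8.05 log2. The mean deviations of the list were -0.05, 0.05 and 0.00 log2 on replicates 1, 2 and 3. Summed linear signals of the list were 6286, 7117 and 6641 on replicates 1, 2 and 3.

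Of 15 collecting duct genes 6 were detected, or 40% against 58.9% of all genes. Aqp2, the vasopressin-regulated water channel, was at 7.84 ± 0.04 log2 (n = 3), Aqp3 at 7.55 and the vasopressin receptor gene Avpr2 at 7.38. Fxyd4 had 7.40, 7.40 and 7.22 log2. The 3 subunit genes of the epithelial sodium channel, Scnn1a, Scnn1b and Scnn1g, were not detected. On replicate 3, 6 of the 15 genes lay below their mean and 2 above, with a mean deviation of -0.03. Of the 6 detected genes 2 lay below and 2 above there, and of all genes 4779 lay below and 4350 above. None of the 15 had a range over 0.5 log2.

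The 13 podocyte genes were spread from 258 to 5561 on the linear scale. Their mean deviations were 0.05, -0.02 and -0.03 log2 on replicates 1, 2 and 3, and none had a range over 0.5 log2. Of the 9 endothelial genes 1, Tek, had such a range, with 11.00, 10.49 and 10.72 log2. None of the 5 mesangial genes did. The podocyte sums of linear signal were 37869, 35658 and 35227 on replicates 1, 2 and 3, highest on replicate 1. The endothelial sums, 21662, 20492 and 20840, were highest there too, and the mesangial sums, 14417, 15150 and 15148, were lowest there. Sums over all genes were 7637455, 7555682 and 7536450, also highest on replicate 1. The part of podocyte content in the tubule signals was not tested.

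**Figure D4:**
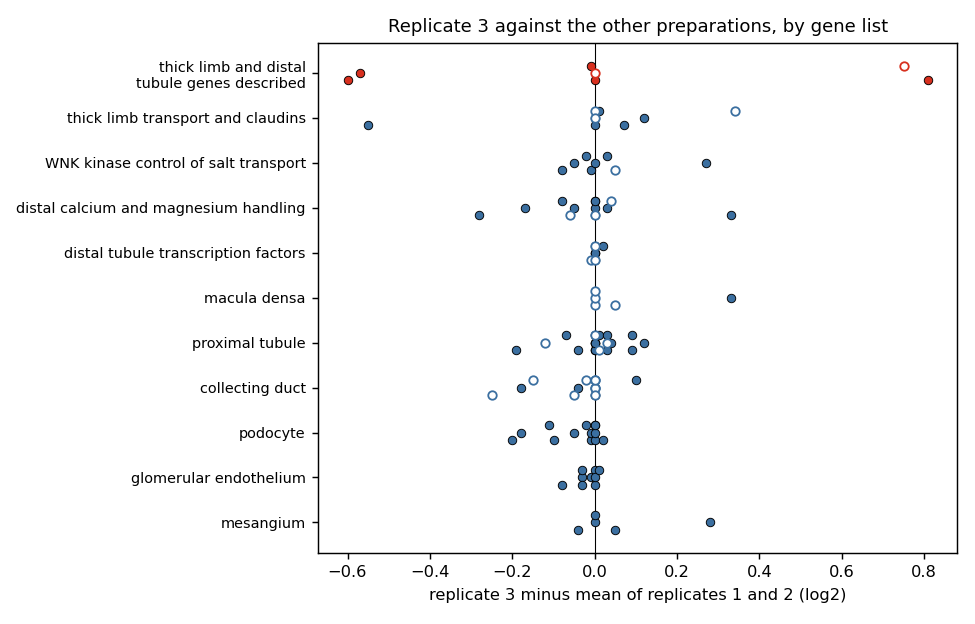
Replicate 3 minus the mean of replicates 1 and 2 in log2 (horizontal axis) for the genes of each list (rows), filled where detected and open where not. The 7 genes described reach from -0.60 to 0.81, Kcnj1 lies at -0.55 and most other listed genes close to 0.

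Egf was finally read with the other genes of its pathway, in which ligands bind receptors of the ErbB family. Of 9 such genes with a value 4 were detected, or 44.4% against 58.9% of all genes. The ligand gene Hbegf was at 9.41 ± 0.01 log2 (n = 3) and the ligand gene Tgfa at 8.13. The receptor gene Erbb2 was at 8.27 and Erbb4 at 7.30 ± 0.01. Egfr, the main receptor of the growth factor, was not detected at 6.55 on every array, and neither were Erbb3, Ereg, Btc and Epgn. As for Egf, none of these genes had a range over 0.5 log2.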

How the data were processed

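Per the labels, total RNA went through 1 round of amplification with a NuGEN whole-transcript kit, was labeled with biotin and was hybridized to Affymetrix mouse gene arrays. The authors deposited 1 table of log2 signals for 35557 probe sets on 3 arrays. Affymetrix Expression Console is the tool in the submitters' processing notes, and the summary method and its settings are not given in the sources used here. Array medians were 7.11, 7.11 and 7.09 log2, and values were used as deposited. The table holds 0 columns of other samples. The number of arrays limits the precision, and arrays give no depth.

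Of the probe sets, 21789 name 1 gene symbol, 1621 several and 12147 are unnamed here. Those with several symbols were not used for genes, and a gene with several probe sets took that of highest mean. Background came from 1210 receptor probe sets. Detection was tested with limma 3.58.1 in R 4.3.3 (lmFit with an intercept, eBayes with a trend, one-sided, Benjamini-Hochberg over all genes), after a check on simulated data. Its standard error follows the level more than a gene's own spread, so the call is close to a cut above background and its p-values are not printed. Named genes are the 7 members and up to 5 detected genes nearest in profile to each member with an SD of 0.2 or more. From each list other than podocyte, endothelium and mesangium come the 3 of highest mean and the 2 of largest SD. Those corpuscle lists were given as counts, deviations and sums, with Tek alone named. Other listed genes were named after their values were seen. The members and lists were chosen with earlier results of these data known. Listed genes with no probe set of their own were not analyzed here. Alternatives were the 99th percentile and the median of receptors as background, a linear signal of 150, quantile normalization, the mean over probe sets, and each array left out.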

Additional observations from a re-analysis of the deposited data

How the results depend on the processing

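No paired analysis was possible because all 3 arrays belong to 1 group. The count of 5 detected genes was the same under all settings run except the median of receptors as background, which gave 7 and thus also called Slc12a1 and Trpm6. Without replicate 1, Slc12a1 averaged 0.08 above background and was not called, with replicate 2 under background and replicate 3 above it. Of the 39 listed genes of the segments, the 99th percentile of receptors called 15, a linear signal of 150 called 21 and leaving out an array 27 to 30. The count of genes with a range over 0.5 log2 was 4 when replicate 1 or replicate 2 was left out and 0 without replicate 3, which therefore decides it, and 1 gene had a range over 1 log2. Without replicate 3 the ranges of Slc12a1 and Pvalb were 0.25 and 0.18 log2, and without replicate 1 that of Calb1 was 0.21. Quantile normalization gave Egf a range of 0.04 and Trpm6 one of 0.02, since their equal values are not kept by it, and 0.55 for Slc12a3 and 1.05 for Umod. It moved the median deviation on replicate 3 from 0.00 to 0.02 for the thick limb, WNK pathway, calcium and magnesium, transcription factor, proximal tubule and collecting duct lists. Taking the mean over genes gave 0.02 for the WNK pathway, -0.03 for the collecting duct and -0.03 for the podocyte list, and without replicate 1 the WNK value was 0.01. The cause of these shifts was not tested. The deviation on replicate 3 has no value without that array.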

Other observations

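Relatives of the 7 genes were also read. Of 15 such genes with a value 8 were detected, or 53.3% against 58.9% of all genes. Slc12a2, which encodes the widely used cotransporter NKCC1, had 12.67, 12.36 and 12.31 log2 on replicates 1, 2 and 3, a mean of 12.45 ± 0.19 (SD, n = 3) and 5.52 above background. The potassium-chloride cotransporter gene Slc12a4 was at 8.24 on every array and Slc12a9 at 7.54. Slc12a7, at 6.99, was 0.06 above background. Of the TRPM channel genes, Trpm7 and Trpm4, at 9.39 and 7.40 log2, were detected, and Trpm1, Trpm2, Trpm3, Trpm5 and Trpm8 were not, like Trpm6. Calb2 and Ocm, relatives of Calb1 and Pvalb, were not detected, at 5.04 ± 0.10 and 5.92 log2.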
